A study of Arabidopsis thaliana with 12 samples.

Results

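CCS (AT1G12520), SRX (AT1G31170) and AT3G52960 are 3 Arabidopsis thaliana genes of copper delivery and peroxide removal, chosen by name because each has 1 array probe that the platform annotation assigns to that gene alone. They are 3 of the 692 probes with 1 gene, among 3439 probes in all, and the annotation gives no further probe for any of them. It names no gene for 1877 probes. Total RNA was measured on expression arrays in 6 samples of the pete1 mutant, which is in ecotype Columbia 0 and lacks an isoform of plastocyanin, and in 6 samples of the wild type (WT) of the same ecotype. Plants of both genotypes grew on MS medium, a standard culture medium. The labels give no tissue, plant age, allele or separate origin for the samples, which are numbered 1 to 6 in each genotype, so p-values measure only the spread between these samples and that spread may be technical. PETE1 has no probe of its own in the annotation and was not analysed here, so its loss in pete1 could not be read from these values.

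Plastocyanin carries electrons to photosystem I and holds much of the copper of the chloroplast. Copper/zinc superoxide dismutases also need that metal, and CCS is the chaperone that inserts it into them. These enzymes turn superoxide into hydrogen peroxide, which peroxiredoxins reduce to water. AT3G52960 encodes the plastid peroxiredoxin IIE. SRX encodes sulfiredoxin, which restores some peroxiredoxins to their active form once they are overoxidised.

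The deposited values are intensities, the brightness of each probe on a linear scale. The median probe of a sample was dimmer in pete1, at 0.279 to 0.331, than in WT, at 0.485 to 0.627. The mean over all probes was much closer, at 0.917 to 1.01 in pete1 and 1.05 to 1.07 in WT. Zeros were more frequent in pete1 (244 to 293 probes against 170 to 206), and the highest value was 100 in several samples of both genotypes. The deposited values may thus have been scaled already, and a dimmer median need not mean less signal in total. Each gene is therefore given both as deposited and on a scale that makes the samples alike. That scale is log2 of the intensity plus a small offset (4.74e-05), quantile normalised. Samples 1 and 2, 3 and 4, and 5 and 6 of a genotype ranked the probes much alike, with Spearman correlations of 0.955 to 0.98, against 0.849 to 0.901 between other samples of a genotype. The 12 samples were therefore fitted with limma with the 6 such pairs as a random block, and a call is an adjusted p (Benjamini-Hochberg over all 3439 probes) under 0.05. In that fit 163 probes passed, 4.74% of those tested (95 higher and 68 lower in pete1). The split followed the scaling, with 62 higher and 963 lower as deposited (29.8% of probes) and 407 higher and 56 lower after each sample was centred on its median (13.5%).

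None of the 3 genes passed in that fit. Of the 3, SRX had the widest gap between the genotypes in the deposited intensities, where all 6 pete1 samples lay below all 6 WT samples, as they did for 32.8% of all probes. After normalisation its groups overlapped. CCS was dimmer in pete1 as deposited but ranked higher there among the probes of its own sample, so its direction depended on the scaling. AT3G52960 differed little between the genotype means as deposited and after quantile normalisation, and was bright in pete1 1 and 2 compared with the other pete1 samples. Set against the median probe of each sample it stood higher in pete1, at 5.86 to 17.4 times that median, than in WT, at 4.16 to 5.57 times. That median was itself lower in pete1, and how many of all probes separated in this way was not counted. By percentile within its own sample AT3G52960 overlapped between the genotypes, with a median of 93.6 in pete1 and 95.4 in WT. Its difference thus also depended on the scaling.

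**Figure D1:**
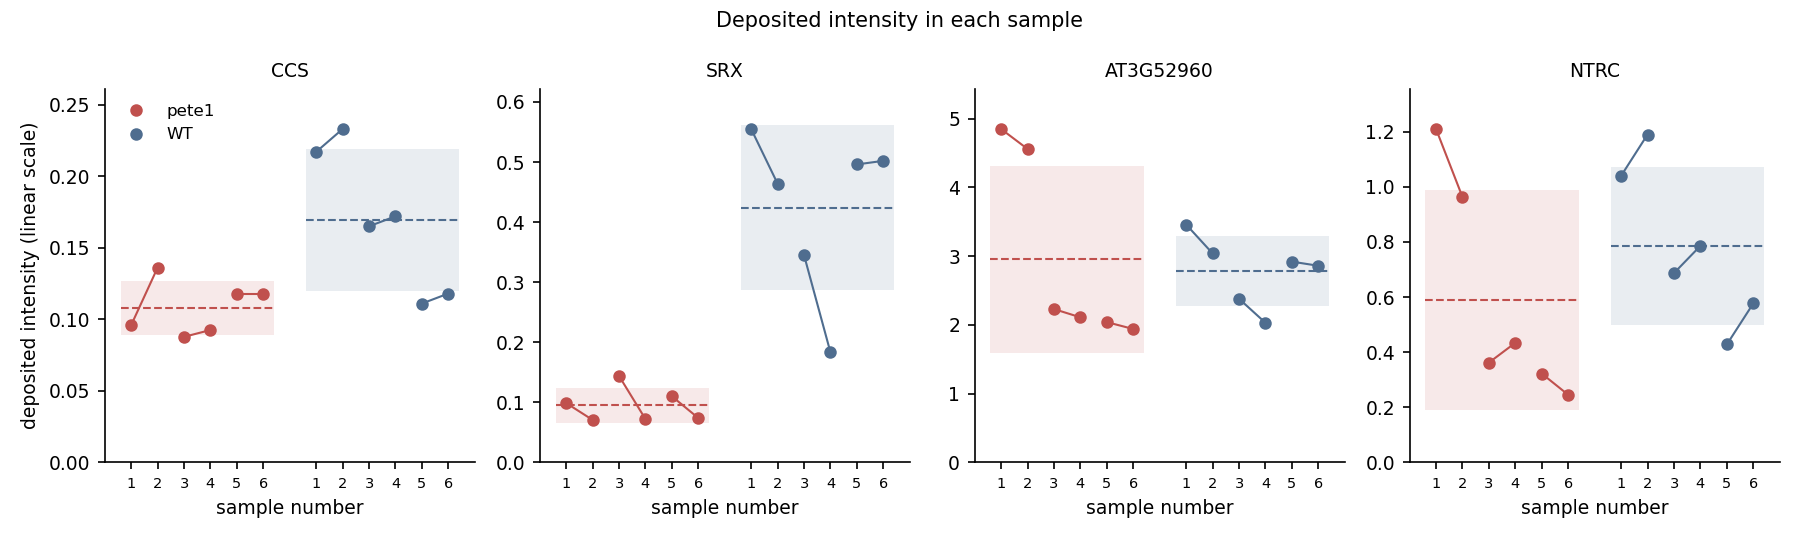
Deposited intensity (linear scale) of the probes of CCS, SRX, AT3G52960 and NTRC in each pete1 and WT sample, by sample number. Lines join consecutive numbers, dashed lines are the means of 6 samples and bands are 1 SD; all SRX points of pete1 lie below those of WT, and the AT3G52960 and NTRC points of pete1 1 and 2 stand above pete1 3 to 6.

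For CCS, the copper chaperone, the deposited intensity in pete1 samples 1 to 6 was 0.0958, 0.136, 0.0877, 0.0925, 0.118 and 0.118. In WT samples 1 to 6 it was 0.217, 0.233, 0.165, 0.172, 0.111 and 0.118. The groups overlapped as deposited, because WT 5 and 6 lay within the pete1 range while WT 1 to 4 lay above it. The mean was 0.108 ± 0.0188 (SD, n = 6) in pete1 and 0.170 ± 0.0498 in WT, a log2 fold change of -0.61 as deposited (95% interval -1.25 to 0.03, limma adjusted p = 0.131). The median of all probes was at -0.73 in that comparison, so CCS lay 0.12 above it. In bulk RNA, fewer cells that express a gene and less of its RNA per cell cannot be told apart.

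Within its own sample the CCS probe stood at the 18.3rd to 27.8th percentile of all probes in pete1, with a median of 20.8, and at the 10.6th to 17.6th in WT, with a median of 16.2. On this ranking the groups did not overlap. The percentile depends on the brightness of the probe itself as well as on the transcript, so it compares CCS between samples and not CCS with other genes. On the normalised log2 scale CCS averaged -2.64 ± 0.22 in pete1 and -3.32 ± 0.50 in WT, and every pete1 sample lay above every WT sample, as it did for 6.48% of all probes. The log2 fold change was 0.68 (SE 0.28, 95% interval 0.05 to 1.3) and did not pass (limma adjusted p = 0.217). Taking the 12 samples as independent, a fit in which 746 probes or 21.7% passed, made the call (limma adjusted p = 0.0479). WT 5 and 6 weighed on the size: without them the log2 fold change was 0.37 (limma adjusted p = 0.5).

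**Figure D2:**
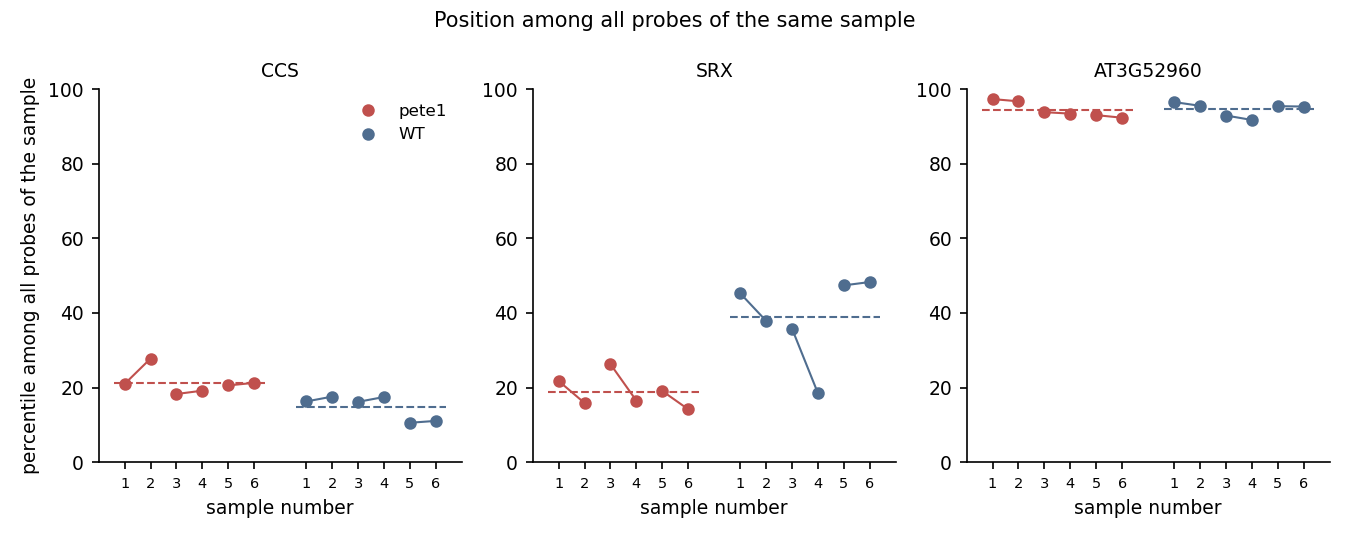
Percentile of the probes of CCS, SRX and AT3G52960 among all 3439 probes of the same sample, for pete1 and WT by sample number. Lines join consecutive numbers and dashed lines are means; CCS lies at 18.3 to 27.8 in pete1 and 10.6 to 17.6 in WT, SRX overlaps only through WT 4, and AT3G52960 stays at 91.7 or above in all samples.

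SRX, the sulfiredoxin, had deposited intensities of 0.0988, 0.0707, 0.144, 0.0722, 0.110 and 0.0738 in pete1 samples 1 to 6. Those of WT samples 1 to 6 were 0.555, 0.464, 0.345, 0.183, 0.496 and 0.502. The lowest WT sample, number 4, lay above the highest pete1 sample, number 3. The mean was 0.0949 ± 0.0289 (SD, n = 6) in pete1 and 0.424 ± 0.137 in WT, or 0.224 times the WT mean. The log2 fold change as deposited was -2.12 (95% interval -3.61 to -0.64), which passed (limma adjusted p = 0.0356) in the fit where 29.8% of all probes did. It lay 1.39 below the median of all probes, at -0.73.

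By rank the SRX probe stood at the 14.2nd to 26.3rd percentile in pete1 (median 17.8), against the 18.5th to 48.3rd in WT (median 41.6). The groups overlapped through WT 4 alone, at 18.5, since the other WT samples lay at 35.8 or above. On the normalised scale SRX averaged -2.86 ± 0.37 in pete1 and -1.78 ± 0.56 in WT. The log2 fold change was -1.08 (SE 0.59, 95% interval -2.39 to 0.23) and it did not pass (limma adjusted p = 0.361). The call was made with the 12 samples taken as independent (limma adjusted p = 0.0159). It was also made when equal numbers of the genotypes were paired through a replicate block (limma adjusted p = 0.031, with 21.6% of all probes passing). That block, too, takes consecutive numbers as independent of each other. The call was not made with consecutive numbers averaged, 3 against 3 (limma adjusted p = 0.227), where 0.204% of all probes passed. Nor was it made when those averages were paired in a replicate block (limma adjusted p = 0.295), where 0 probes passed and 591 had an unadjusted p under 0.05. The random block gives all probes 1 within-pair correlation, 0.81, whereas some pairs of SRX were wide apart. In log2 of the deposited values, pete1 3 and 4 were 0.99 apart and WT 3 and 4 were 0.91 apart, against a range of 0.28 over the 3 pete1 pair means and 1.01 over the 3 WT pair means. Over the 2942 probes above 0 in every sample, the median of the largest gap within a pair was 0.37, and the ranges of the pair means had medians of 0.77 in pete1 and 0.66 in WT. SRX was lower in pete1 in all 12 fits that left out 1 sample and in all 6 that left out a pair. Since only WT 4 reached into the pete1 range, leaving out so few samples could hardly change that sign.

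AT3G52960, the peroxiredoxin, had deposited intensities of 4.85, 4.56, 2.23, 2.11, 2.04 and 1.94 in pete1 samples 1 to 6. In WT samples 1 to 6 they were 3.46, 3.04, 2.38, 2.03, 2.92 and 2.86. The ranges overlapped, with pete1 1 and 2 above all WT samples and pete1 6 below them all. The mean was 2.95 ± 1.36 (SD, n = 6) in pete1 and 2.78 ± 0.504 in WT, and the spread of the pete1 samples came mainly from numbers 1 and 2. Its log2 fold change was 0.01 after normalisation (SE 0.30, 95% interval -0.65 to 0.68, limma adjusted p = 1) and -0.01 as deposited (95% interval -0.67 to 0.65). The interval after normalisation still allows differences of up to about 0.68 on the log2 scale in either direction. As deposited, AT3G52960 lay 0.72 above the median of all probes.

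The probe of AT3G52960 ranked at the 92.3rd to 97.3rd percentile in pete1 and at the 91.7th to 96.5th in WT. Both pete1 1 and pete1 2 exceeded 2 times the highest of pete1 3 to 6, a pattern seen after the values were examined and shared by 193 of the 3439 probes (5.61%) in pete1 and by 46 (1.34%) in WT. AT3G52960 did not show it in WT, where samples 1 and 2 were nonetheless the brightest. CCS and SRX showed it in neither genotype.

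The genotypes were also set against each other within equal numbers. SRX was lower in pete1 at all 6 numbers on both scales, with deposited ratios of pete1 to WT of 0.178, 0.153, 0.417, 0.394, 0.222 and 0.147 for numbers 1 to 6. Its normalised differences were -1.13, -1.33, -0.46, -0.18, -1.41 and -1.96 on the log2 scale. Over all probes, pete1 lay below WT at all 6 numbers for 52.6% as deposited and for 15.5% after normalisation, and the median log2 ratio as deposited was -1.03, -0.99, -0.60, -0.60, -0.50 and -0.50 for numbers 1 to 6. The 6 numbers are 3 pairs of like samples, not 6 independent comparisons. The gap of SRX was narrowest at numbers 3 and 4, where WT was dimmest. CCS had deposited ratios of 0.441, 0.582, 0.531, 0.537, 1.07 and 1.0, lower in pete1 at 4 numbers, whereas its normalised differences of 0.40, 0.70, 0.20, 0.15, 1.34 and 1.26 were above 0 at all 6, as they were for 15.1% of all probes. AT3G52960 had deposited ratios of 1.4, 1.5, 0.937, 1.04, 0.698 and 0.676, above 1 at 3 numbers and below 1 at the other 3. Its ratio thus ran in opposite directions at numbers 1 and 2 and at numbers 5 and 6.

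**Figure D3:**
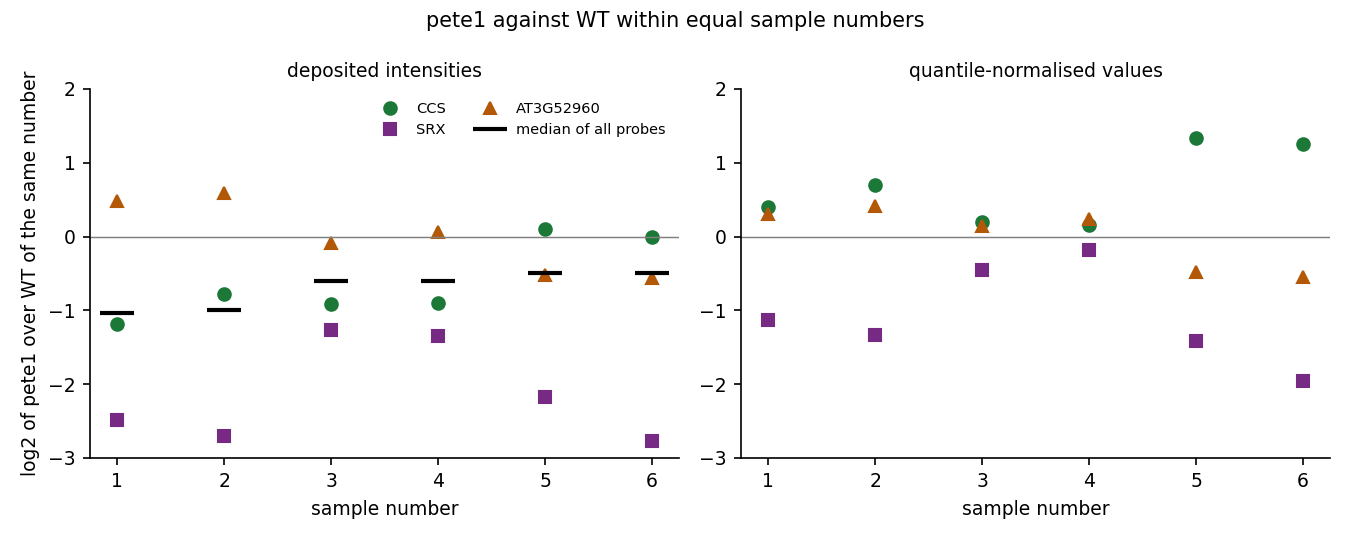
log2 ratio of pete1 to WT of the same sample number for CCS, SRX and AT3G52960, as deposited (left, with the median over all probes as black bars) and after quantile normalisation (right). SRX lies below 0 at all 6 numbers in both panels, CCS lies above 0 at all 6 after normalisation and below 0 at 4 as deposited, and AT3G52960 lies on both sides.

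In the fits made, the way samples were counted decided the call of CCS, and the scaling decided its direction. Both decided the call of SRX. For SRX the sign was negative in all 16 alternatives that kept every sample, with log2 fold changes of -2.12 to -0.85, and 5 of them passed. Within a scaling, changing only how samples were counted left the fold change the same. The 16 are therefore not separate checks of the sign. One of the 5 was the averages of the deposited values, 3 against 3 (limma adjusted p = 0.0419), where 10.6% of all probes passed. Of the 16, 3 were chosen after seeing the data, among them these averages and the deposited values with 12 independent samples. For CCS they ran from -0.61 to 0.68, negative wherever the intensities were used as deposited. After each sample was centred on its median, CCS was at 0.20 (limma adjusted p = 0.711). It passed in 2, in opposite directions, both with the 12 samples taken as independent: 0.68 after normalisation and -0.61 as deposited (limma adjusted p = 0.0243), where 54.1% of all probes passed. AT3G52960 passed in none, and its highest value was 0.80 after each sample was centred on its median (limma adjusted p = 0.139).

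**Figure D4:**
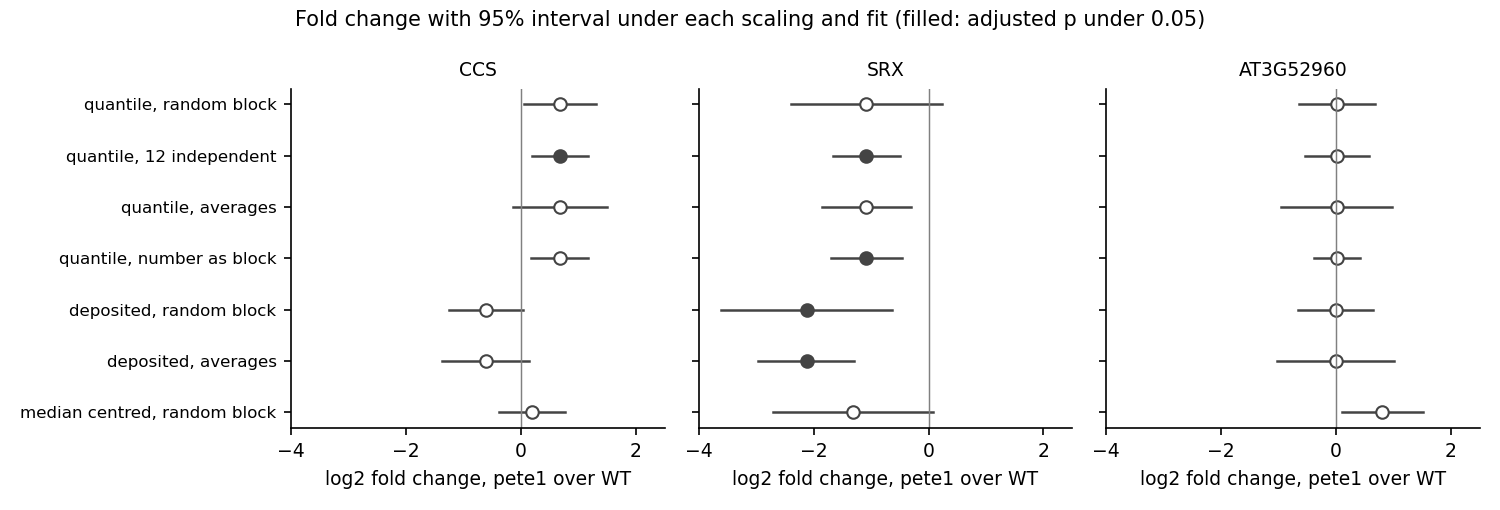
log2 fold change of pete1 over WT with its 95% interval for CCS, SRX and AT3G52960 under 7 combinations of scaling and fit, with filled points where the limma adjusted p is under 0.05. CCS changes side between the normalised and the deposited values, SRX is below 0 in all of those shown, and AT3G52960 is near 0 except after median centring.

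Among 64 loci of 7 lists of copper delivery, plastocyanin, superoxide dismutases, peroxiredoxins and their reductants, ascorbate and glutathione enzymes, and catalases, 4 had a probe of their own: the 3 genes above and NTRC (AT2G41680). Another 9 were only on probes shared by several genes and are not named from them. No superoxide dismutase had a probe of its own, so the copper/zinc ones that CCS serves could not be read. NTRC is the plastid NADPH-thioredoxin reductase that feeds electrons to some peroxiredoxins. Its deposited intensities were 1.21, 0.963, 0.362, 0.434, 0.322 and 0.245 in pete1 samples 1 to 6. In WT samples 1 to 6 they were 1.04, 1.19, 0.687, 0.786, 0.428 and 0.577. The groups overlapped. NTRC, like AT3G52960 and 5.61% of all probes, had pete1 1 and 2 at over 2 times the highest of pete1 3 to 6. In WT, too, samples 1 and 2 were the brightest for NTRC. Its log2 fold change was 0.01 (SE 0.49, 95% interval -1.07 to 1.1, limma adjusted p = 1) and -0.59 as deposited (limma adjusted p = 0.423). None of these 4 genes passed in the fit with the random block, in which 4.74% of all probes did.

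The genes whose normalised values ran most like each member were taken from 631 other probes with 1 gene that were above 0 in at least 9 of the 12 samples. These Pearson correlations over 12 samples describe likeness only, since consecutive samples are alike and the genotype gap enters them. For SRX they were AT1G17744 (r = 0.93), AT3G27550 (r = 0.91) and AT5G49120 (r = 0.90), with log2 fold changes of -0.92, -1.11 and -1.06. AT3G27550 alone of the 3 passed in pete1 against WT (limma adjusted p = 0.0236), in the fit where 4.74% of all probes did. For AT3G52960 the most alike were AT2G20920 (r = 0.91), AT5G46390 (r = 0.88) and AT5G59400 (r = 0.87). Their log2 fold changes were 0, 0.25 and 0.14, and none of them passed. For CCS the most alike were AT1G11730 (r = 0.88), AT4G18180 (r = 0.85) and AT2G48130 (r = 0.80). These had log2 fold changes of 1.53, 0.27 and 0.33, and none of them passed either.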

How the data were processed

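Intensities, 1 per probe and sample, were analysed as the authors deposited them; for the array reader, background correction and scaling, nothing is given in the sources used here. Probe names came from the platform annotation (692 probes with 1 gene, 870 with several, 1877 with none) and were updated through the TAIR10.1 gene table of RefSeq, in which 690 of the 692 matched a locus. No genome build is named for the values, so no coordinates are given. Values were quantile normalised as log2(intensity + 4.74e-05) and fitted with limma 3.58.1 (R 4.3.3, statmod 1.5.0; lmFit, duplicateCorrelation and eBayes, two-sided). A fold change is on that scale, or on the unnormalised log2 scale where given as deposited. The fit was tested on simulated data with a within-pair correlation of 0.81. It recovered 38% of 2-fold and 80% of 4-fold changes and called 6 unchanged probes. Most 2-fold changes were thus missed in the simulation, and a gene that did not pass may still differ. All simulated probes had the same within-pair correlation, as the fit assumes, and equal numbers shared no effect. The rates may therefore not hold for a probe such as SRX, of which some pairs were wide apart. No measure of background was used, so how far the dim probes of CCS and SRX stood above it was not tested. Cross-hybridisation was not checked.

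The random block was made from consecutive numbers because earlier results of these data showed their likeness. Deviations from the genotype mean correlated at 0.221 to 0.452 between pete1 and WT samples of the same number in all 6 pairs. Samples of unequal numbers were not compared, so whether the numbers pair the samples was not tested. An alternative fit took the number as a replicate block. The genes, lists and tests were chosen with earlier results of these data known. The genes named are the 3 members, every listed or keyword-matched gene with a probe of its own, and the 3 most alike genes of each member.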

Additional observations from a re-analysis of the deposited data

Results flagged for a closer look

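In 12 groups of 6 values (3 genes, 2 genotypes, deposited and normalised), 2 held a sample far from the others, both on the normalised log2 scale. CCS in pete1 2 was at -2.23, with the other pete1 samples between -2.87 and -2.63. SRX in WT 4 was at -2.85, with the other WT samples between -1.85 and -1.35. Without WT 4 the log2 fold change of SRX was -1.26 (limma adjusted p = 0.166). Chance picks out about 5% of groups if the 6 values are independent, which consecutive numbers are not.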

How the results depend on the processing

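Against 163 probes, the count was 746 with 12 samples taken as independent, 743 under the replicate block (the sample number), 7 with consecutive numbers averaged and 0 with averages and their pair of numbers as a block (limma; 563 and 591 at an unadjusted p under 0.05). It was 1025 as deposited, 463 after median centring, 101 among probes above 0 in at least 6 samples and 22 among probes with 1 gene. Alternatives chosen after seeing the data gave 1861 as deposited with 12 independent samples, 363 in averages as deposited and 6 with their block. Leaving out 1 sample gave 102 to 132 and leaving out a pair 42 (pete1 3 and 4) to 168 (WT 3 and 4).

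SRX passed with 12 independent samples (-1.08), under the replicate block (-1.08), and as deposited (-2.12), with 12 independent samples (-2.12, adjusted p = 0.00022) and in averages (-2.12, adjusted p = 0.0419), but not with the averages' block (adjusted p = 0.101 as deposited and 0.295 normalised). Its adjusted p ran from 0.00022 to 0.388. CCS passed with 12 independent samples (0.68) and turned to -0.61 as deposited, with the random block, 12 independent samples, averages or their block; under the replicate block it did not pass (0.68, adjusted p = 0.0626). AT3G52960, at 0.01, was at 0.80 after median centring, at -0.12 with array weights and at -0.01 in each fit as deposited. With 1 sample left out, the ranges were -1.26 to -0.95 for SRX, 0.60 to 0.72 for CCS and -0.04 to 0.07 for AT3G52960; with a pair also, -1.39 to -0.90, 0.37 to 0.88 and -0.31 (without pete1 1 and 2) to 0.21. None of these passed. Cyclic loess, other offsets, filters and variance priors kept each direction and each call of the 3 genes. The cause of these changes was not tested.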
